A study of Mus musculus with 30 samples.

Results

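The respiratory chain of the mitochondrion was described here at the level of its transcripts in the hypothalamus of mice that carried a human repeat polymorphism in the clock gene Per3. Electrons from nutrients enter the chain through complex I, which oxidizes NADH, or complex II, which oxidizes succinate. They then pass through complex III to complex IV, where oxygen is reduced, and the proton gradient built on the way drives ATP synthesis by complex V. Most subunits are encoded in the nucleus, and neurons depend on this route for most of their ATP. The members were all non-control probes whose gene name in the array's annotation began with Nduf, Sdh followed by a letter from a to d, Uqcr, Cox4 to Cox8, or Atp5. This rule gave 131 probes for 91 genes, among 41174 non-control probes with 28146 gene names on the array, and it used no measured value. Subunits encoded in mitochondrial DNA do not carry these names and were not among the members.

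Hypothalamic RNA of 30 male C57BL/6 mice was hybridized to 1-colour Agilent whole-genome arrays, with 1 array per mouse. The Boxhill line was homozygous for a knock-in with the 5-repeat human variant (Per3 5/5, n = 7), the Coach line for the 4-repeat variant (Per3 4/4, n = 8), and the Wildtype mice (WT, n = 15) were derived from the same conditional transgenic animals. In both knock-in lines a human exon with the repeat replaced the mouse exon. No other agent is named for any group. All mice were kept in 3.5 h light and 3.5 h dark, and brains were collected in the light phase of cycle 17. The arrays were run in 2 batches with different scanners, so the Per3 5/5 arrays were compared with the WT arrays of run 1 (R1 to R7) and the Per3 4/4 arrays with the WT arrays of run 2 (R8 to R15). All values below are log2 intensities relative to the 75th percentile of the array's own spots, which is 0 on this scale, and levels of different probes are not compared with each other.

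The arrays varied in brightness and in how far they lay from the rest of their run. In run 1 the 75th percentile of intensity lay between 752 and 1546 on the Per3 5/5 arrays, with a median of 941, and between 907 and 1091 on the WT arrays. In run 2 it lay between 347 and 1370 for Per3 4/4 and between 490 and 1260 for WT, with medians of 1060 and 875. The spread of an array was taken as the median absolute deviation of its values from the median of each probe in the run. Over all tested probes, Per3 5/5 array 3 had a spread of 0.46, array 6 of 0.33 and array 5 of 0.30, whereas the other Per3 5/5 arrays lay between 0.12 and 0.18. WT array 1 (0.38), Per3 4/4 array 5 (0.59) and WT arrays 10 (0.50), 13 (0.51) and 15 (0.58) were also more than 1.5 times the median spread of their run. The respiratory chain probes had their own widest spread on Per3 4/4 array 5 (0.39), WT array 15 (0.36) and Per3 5/5 array 3 (0.29), followed by Per3 4/4 arrays 7 and 4 (both 0.26).

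**Figure D1:**
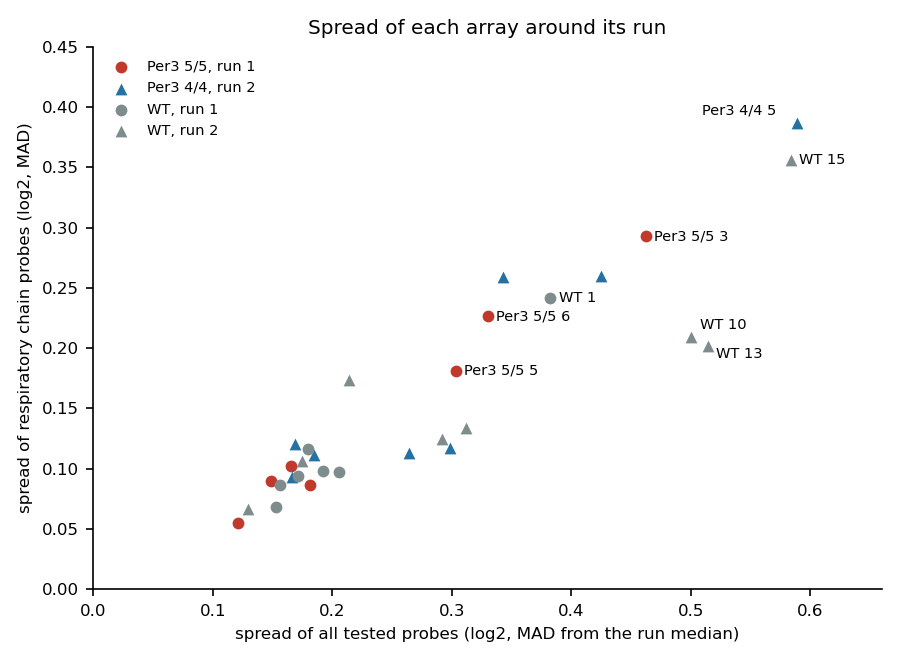
Spread of each array around the median of its run, for all 29946 tested probes (x axis) and for the 127 tested respiratory chain probes (y axis), as the median absolute deviation in log2 units. Each point is 1 array, circles are run 1 and triangles run 2, and the 8 named arrays exceed 1.5 times the median spread of their run on the x axis.

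Slide position could not be separated from genotype in run 1, where every Per3 5/5 array lay at position 2 or 4 and every WT array at position 1 or 3 of its slide. In run 2 both genotypes lay at all positions. The columns of the authors' own log2 table matched the scanner values of their own array in all 16 arrays of run 2. In run 1, 13 of 14 columns matched another array of the same genotype, so the replicate numbers of run 1 are those of the scanner files and are not settled, whereas no column matched an array of another genotype.

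The tissue was checked against marker lists. Of 15 genes of hypothalamic neurons with a probe, 13 were well above background on all 30 arrays, among them Hcrt, Pmch, Oxt, Avp and Agrp, and Otp was on none. The 6 pan-neuronal, 6 astrocyte and 6 oligodendrocyte genes were detected on all 30 arrays. In 3 lists the sums of Per3 5/5 arrays 3, 5 and 6 did not overlap those of the other 11 arrays of run 1. Their summed astrocyte signal (6 of 6 genes, brightest Slc1a2) was at most 115 against 131 to 174, their oligodendrocyte signal (6 of 6 genes, brightest Mbp) 332 to 409 against 410 to 576, and their endothelial signal (5 of 5 genes, brightest Cldn5) 8.37 to 9.15 against 9.25 to 17.8, in multiples of the array's 75th percentile. The sum for hypothalamic neurons (brightest Hcrt) was 215 to 276 on these arrays and 108 to 215 on the others, and that for neurons in general was 335 to 398 and 341 to 432. The sums for microglia, ependyma, choroid plexus, pituitary, blood and skeletal muscle overlapped too. In run 2, Per3 4/4 array 1 had a skeletal muscle sum of 11.9 where the other 29 arrays had 0.855 to 1.38, and WT array 14 had a pituitary sum of 982 where the others had 0.365 to 24.8. In a bulk tissue, fewer cells of a type and less RNA per cell cannot be told apart, and the part of these differences in the results below was not tested except where values are given.

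Of the 131 member probes, 127 passed the filter (well above background on at least 50% of the arrays of 1 genotype) and 116 were above background on all 30 arrays. The filter removed the testis-type isoform Cox8c, which was above background on 0 arrays, and 3 probes designed on cDNA clones of Ndufs4, Ndufs5 and Ndufv2, whose genes kept another probe. Among the 127, 1 probe of Uqcrq was above background on no array of run 1 and that of Cox4i2 on none of run 2, so their values there lie within background although they are part of the counts. The median within-group SD was 0.20 for the members and 0.34 for all 29946 tested probes. The sets also differ in signal: 91.3% of the members were above background on all 30 arrays, against 74.4% of all tested probes. Spread was not compared at like signal.

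The differences between genotypes were small in this set. No respiratory chain probe passed an adjusted p of 0.05 (limma, Benjamini-Hochberg over 29946 probes) in Per3 5/5 against WT, where 0% of all probes passed, in Per3 4/4 against WT, where 0.0134% passed (4 probes), or in the difference between both effects, where 0% passed. The smallest adjusted p of a member was 0.80 in run 1 and 1.00 in run 2. In Per3 5/5 the log2 fold changes of the members ranged from −0.88 to 0.89 with a median of 0.05, against −0.02 for all probes, and 105 of 127 were smaller than 0.25. In Per3 4/4 they ranged from −0.32 to 0.67 with a median of −0.03, against 0.01 for all probes, and 123 of 127 were smaller than 0.25.

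The direction of these small differences was unequal. In Per3 5/5, 86 of 127 members (67.7%) had a fold change above 0, where 45.5% of all probes did. In Per3 4/4, 47 of 127 (37.0%) did, where 51.7% of all probes did. At an unadjusted p under 0.05 there were 19 members of 15 genes in Per3 5/5, all with higher means than WT (15.0% of members, against 3.43% of all probes in that direction and 6.17% in both directions), and 4 members of 3 genes in Per3 4/4, all with lower means (3.15%, against 0.748% of all probes lower, 0.985% higher and 1.73% in both directions). By the methods' t-test, 27 members had an unadjusted p under 0.05 in Per3 5/5 (10.4% of all probes), as did 4 in Per3 4/4 (0.985%). Without the arrays of wide spread the limma count was 1 in Per3 5/5 (2.01% of all probes) and 19 in Per3 4/4 (4.92%), and with array weights it was 15 in Per3 5/5 (10.1%) and 24 in Per3 4/4 (5.36%). The probes of this set share arrays, so these counts describe the set and are not independent votes. The fold change was positive in run 1 and negative in run 2 for 50 probes, the reverse for 11, positive in both for 36 and negative in both for 30. These joint counts follow in part from the counts of each run, and they were not taken over all probes. No opposite movement of the same probes is therefore read from them.

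**Figure D2:**
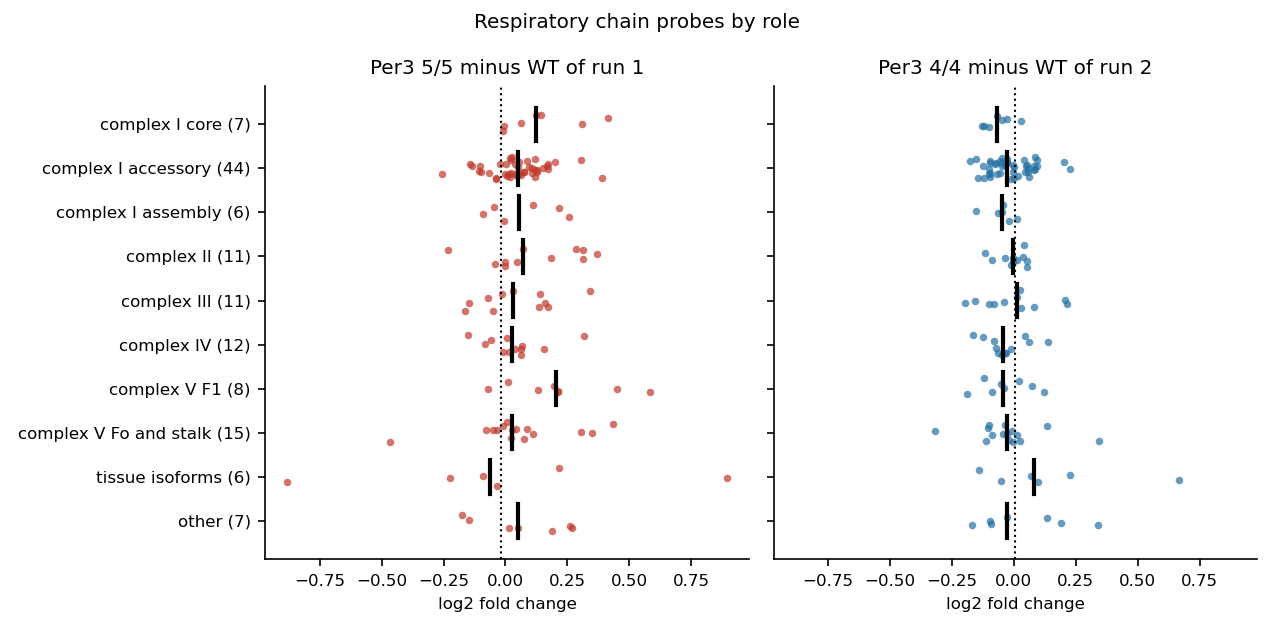
Log2 fold changes of the 127 tested respiratory chain probes by role, for Per3 5/5 against WT of run 1 (left) and Per3 4/4 against WT of run 2 (right). Each point is 1 probe, thick bars are the median of the role, the dotted line is the median of all tested probes, and numbers in brackets count probes. The medians of 9 of 10 roles lie above 0 on the left, where the tissue isoforms are at −0.06.

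Much of the run 1 difference was carried by Per3 5/5 arrays 3, 5 and 6. The mean of these 3 arrays was more than 0.5 above the WT mean in 18 of 127 members (14.2%, against 8.88% of all probes) and more than 0.5 below it in 4 (3.15%, against 13.1%). Without these arrays no member had an unadjusted p under 0.05 (0.905% of all probes did), although 93 of 127 members had a fold change above 0 (55.3% of all probes) and the median was 0.04 (0.02 for all probes). When single arrays were left out the count of 19 lay between 6 and 24. It was 6 without array 3 (2.69% of all probes), 9 without array 5 (2.88%), 13 without array 6 (3.17%) and 24 without array 4 (8.55%). In run 2 the count of 4 lay between 0 and 8, with 0 without WT array 11 (1.92% of all probes) and 8 without Per3 4/4 array 7 (4.42%).

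The promoters of 4 genes that the results return to are shown from RefSeq (GRCm38.p6), as the 250 bases before the annotated start, read 5′ to 3′ on the gene's strand. Of 91 member genes, 76 matched a promoter entry, with 82 promoters. Capitals mark the site of nuclear respiratory factor 1 (NRF1) in Sdha and Ndufa11, and GGGCGG, the GC box, in Atp5b, each on either strand. Sdha is shown because it had the largest run 1 value of complex II, Ndufa11 because it had the smallest p of the set in run 2, Atp5b because it had the largest run 1 value outside the tissue isoforms, and Cox8b because it varied most.
Sdha, chr13:74350241-74350490, minus strand: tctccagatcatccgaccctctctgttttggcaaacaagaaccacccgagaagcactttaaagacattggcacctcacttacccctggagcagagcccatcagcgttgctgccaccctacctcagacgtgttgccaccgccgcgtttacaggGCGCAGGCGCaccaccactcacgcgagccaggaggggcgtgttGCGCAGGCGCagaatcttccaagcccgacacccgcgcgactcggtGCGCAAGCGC
Ndufa11, chr17:56717512-56717761, plus strand: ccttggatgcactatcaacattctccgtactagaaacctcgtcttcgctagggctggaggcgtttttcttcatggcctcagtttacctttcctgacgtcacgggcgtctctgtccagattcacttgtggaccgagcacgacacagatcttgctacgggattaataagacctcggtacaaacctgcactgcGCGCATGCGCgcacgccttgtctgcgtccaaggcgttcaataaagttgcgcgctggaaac
Atp5b, chr10:128083057-128083306, plus strand: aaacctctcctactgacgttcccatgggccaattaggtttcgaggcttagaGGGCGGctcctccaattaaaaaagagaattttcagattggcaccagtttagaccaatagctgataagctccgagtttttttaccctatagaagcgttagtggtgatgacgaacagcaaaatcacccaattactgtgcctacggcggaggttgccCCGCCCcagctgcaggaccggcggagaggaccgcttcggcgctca
Cox8b, chr7:140900447-140900696, minus strand: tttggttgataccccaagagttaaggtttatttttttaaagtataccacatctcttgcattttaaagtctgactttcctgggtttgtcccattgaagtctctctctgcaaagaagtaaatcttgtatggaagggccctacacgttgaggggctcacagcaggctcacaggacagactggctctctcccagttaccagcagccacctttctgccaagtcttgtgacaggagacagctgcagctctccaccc
The NRF1 letters stood 3 times in the Sdha promoter, once in that of Ndufa11 and in neither of the others. They were found in 15 of the 82 member promoters (18.3%) and in 3.74% of all 32851 promoters of the same length. The letters CCGGAAG, a site of ETS factors such as GABP, were in 14 member promoters (17.1%) and 6.91% of all, and GGGCGG, a word of other factors too, was in 32 (39.0%) and 32.7%. A match of letters describes the sequence only, and these promoters are written in another build than the probe positions below, which are those of the array's annotation (mm9).

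Complex V, the ATP synthase, held the largest positive run 1 value outside the tissue isoforms. In the F1 head, which carries the catalytic sites, 7 of 8 probes had a fold change above 0 in Per3 5/5 (median 0.20). Atp5b encodes the catalytic beta subunit. Its probe A_51_P207636 (mm9 chr10:127522569-127522628) measured 3.06 to 4.83 in Per3 5/5 (median 3.43) and 2.90 to 3.46 in WT (median 3.16). The groups overlapped: arrays 3, 5 and 6 stood at 4.83, 4.35 and 3.98, and the other 4 Per3 5/5 arrays within the WT range. Its fold change was 0.59 (SE 0.19, unadjusted p = 0.0046, limma adjusted p = 0.80) and 0.11 without those 3 arrays. The other Atp5b probes differed in size. A_52_P553841, which lies upstream of it and spans 679 bases of the genome (chr10:127521478-127522156), gave 0.45 (SE 0.19), and A_52_P328078 at the downstream end (chr10:127527255-127527314) gave 0.21 (SE 0.11).

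The downstream Atp5b probe was nevertheless 1 of 2 members whose groups did not overlap in run 1. It measured 7.22 to 7.46 in Per3 5/5 (median 7.23) and 7.02 to 7.19 in WT (median 7.06). All 7 knock-in arrays lay above all 7 WT arrays, by a small amount, and the fold change without arrays 3, 5 and 6 was 0.17. The other was Atp5g3, 1 of the genes for the c subunit of the rotating ring, at 6.33 to 6.96 (median 6.53) against 6.25 to 6.31 (median 6.27), with a fold change of 0.35 (SE 0.14, limma adjusted p = 0.80) that was 0.15 without those arrays. Over all probes, 0.0768% lay above WT without overlap and 0.0968% below. Neither pattern was seen in run 2: the same Atp5b probe measured 6.66 to 7.59 in Per3 4/4 and 6.54 to 7.16 in WT, and no member was free of overlap there, where 0.00668% of all probes lay above WT and 0.00668% below.

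In the Fo part and the stalk, 10 of 15 probes were above 0 in run 1 (median 0.03). Atp5f1, the b subunit of the peripheral stalk, measured 4.73 to 5.73 in Per3 5/5 (median 4.79) and 4.45 to 4.83 in WT (median 4.69) with A_51_P168708. Its fold change was 0.43 (SE 0.15, limma adjusted p = 0.80), and 0.11 without arrays 3, 5 and 6, which held the 3 highest values. The other Atp5f1 probes, both built on cDNA sequences, gave 0.31 (SE 0.13) and 0.11 (SE 0.19) in run 1, and the latter gave −0.32 (SE 0.18) in run 2. The cDNA-clone probe of Atp5j2, a small Fo subunit, went the other way at −0.47 (SE 0.38), with a within-group SD of 0.74, whereas the RefSeq probe of this gene gave −0.08. Atp5d, the delta subunit of F1, gave 0.01 in run 1 and −0.19 (SE 0.10) in run 2.

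**Figure D3:**
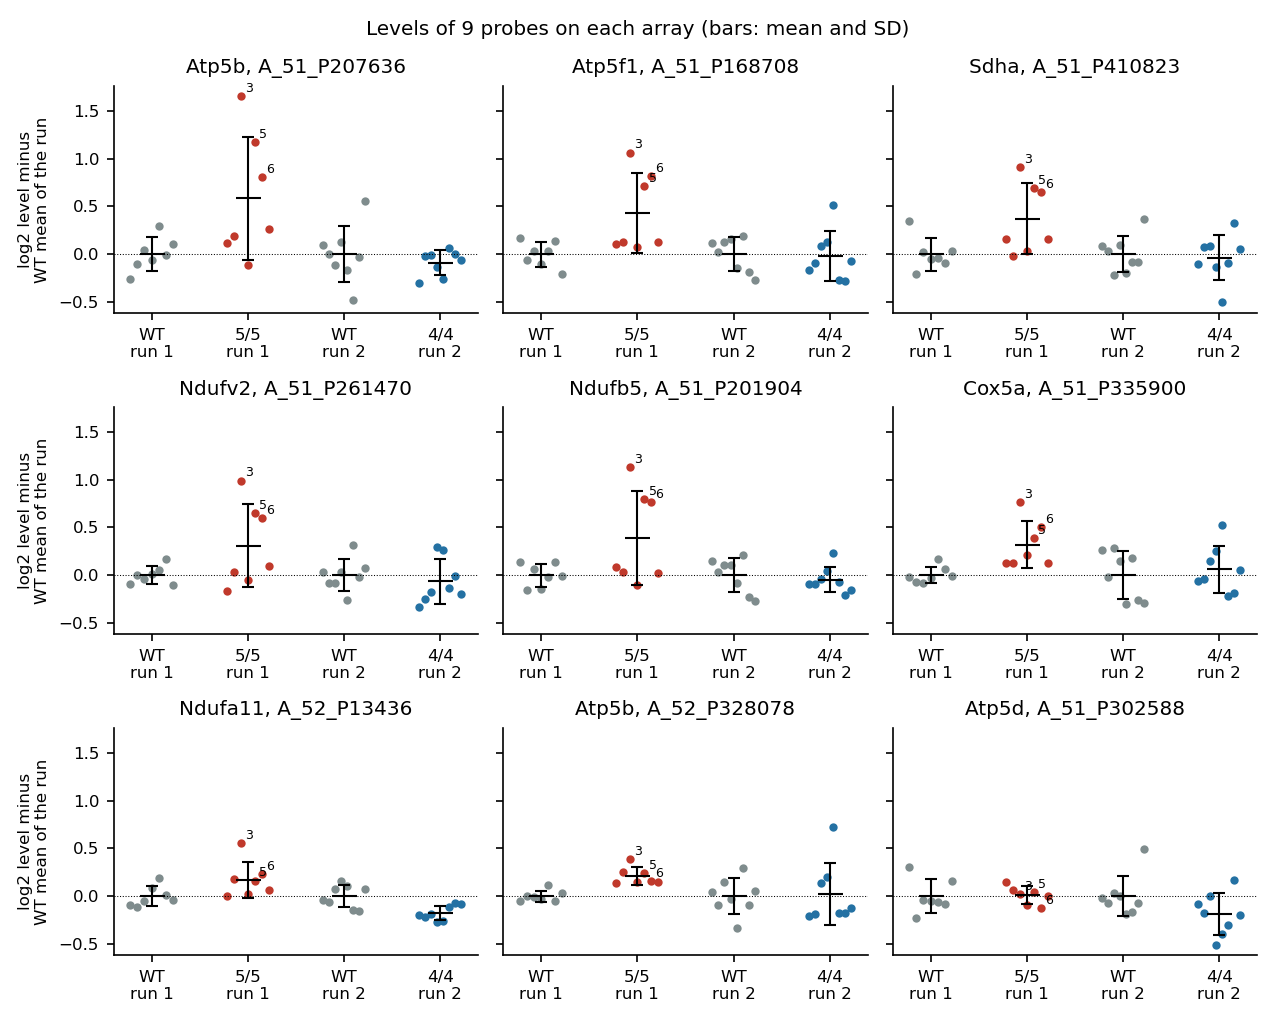
Log2 level of 9 respiratory chain probes on each array, minus the WT mean of the run (y axis), by group and run (x axis). Points are arrays, bars the mean and SD, and the digits 3, 5 and 6 mark those Per3 5/5 arrays, which hold the 3 highest Per3 5/5 values in the upper 6 panels.

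Complex II, succinate dehydrogenase, belongs to both the chain and the tricarboxylic acid cycle. Sdha, its flavoprotein subunit, measured 1.87 to 2.81 in Per3 5/5 (median 2.05) and 1.68 to 2.24 in WT (median 1.85) with A_51_P410823 (mm9 chr13:74460146-74460205). Arrays 3, 5 and 6 lay above all WT arrays and the other 4 within their range. Sdha differed by 0.37 (SE 0.14, limma adjusted p = 0.80) and 0.08 without those arrays, and a second probe in the same transcript gave 0.31 (SE 0.13). The third Sdha probe, A_52_P458708 (chr13:74486662-74486720), was designed on a cDNA clone and gave −0.23 (SE 0.21). Sdha was the only one of 27 genes with several tested probes whose fold changes differed by more than 0.5 in run 1, and no gene did in run 2. Sdhb, the iron-sulphur subunit, gave 0.31 (SE 0.14) and 0.0028 without arrays 3, 5 and 6. The membrane anchor Sdhc gave −0.04. The other anchor, Sdhd, stood 0.64 above the WT mean on arrays 3, 5 and 6, and 0.02 above it on the other Per3 5/5 arrays. In Per3 4/4 the 11 probes of complex II lay between −0.12 and 0.05, with the smallest p at the assembly factor Sdhaf1 (−0.12, SE 0.08).

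Complex I is the largest complex, with 7 tested probes of core subunits, 44 of accessory subunits and 6 of assembly factors. In Per3 5/5, 5 of 7 core probes and 33 of 44 accessory probes were above 0 (medians 0.12 and 0.05). Ndufv2, a core subunit of the NADH-oxidizing module, measured 2.65 to 3.81 in Per3 5/5 (median 2.91) and 2.71 to 2.98 in WT (median 2.82). Arrays 3, 5 and 6 held its highest values, above all WT arrays. The difference was 0.31 (SE 0.14, limma adjusted p = 0.80) and −0.0226 without those arrays, and the accessory subunit Ndufb5 gave 0.39 (SE 0.15) and 0.0082 without them. Of the assembly factors, which join the complex only while it is built, Ndufaf3 gave 0.21 (SE 0.12) and −0.0076 without them.

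Ndufa11, an accessory subunit in the membrane arm, was the member with the smallest p in run 2. With A_52_P13436 (mm9 chr17:56857231-56857290) it measured 3.11 to 3.31 in Per3 4/4 (median 3.19) and 3.22 to 3.55 in WT (median 3.40). All 8 knock-in arrays lay below the WT mean, though the groups overlapped, and the fold change was −0.18 (SE 0.08, unadjusted p = 0.031, limma adjusted p = 1.00). In run 1 it measured 2.58 to 3.13 in Per3 5/5 (median 2.74) and 2.46 to 2.77 in WT (median 2.54), a fold change of 0.17 (SE 0.08) that was 0.07 without arrays 3, 5 and 6. The difference between both effects was 0.35 (SE 0.11, unadjusted p = 0.0047, limma adjusted p = 1.00), the smallest p of a member for that difference. The other Ndufa11 probe (chr17:56857241-56857300) gave 0.17 in run 1 and −0.15 in run 2. It overlaps the first by 50 of 60 bases, so both measure nearly the same stretch and are not independent.

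In Per3 4/4, 1 of 7 core, 17 of 44 accessory and 1 of 6 assembly probes of complex I were above 0, with medians of −0.07, −0.03 and −0.05. Both probes of Ndufa8, an accessory subunit, gave the highest values, 0.20 (SE 0.13) and 0.23 (SE 0.15). Ndufs3, a core subunit, measured 4.49 to 4.92 in Per3 4/4 and 4.51 to 5.01 in WT (−0.13, SE 0.08). The assembly factor Ndufaf4 gave −0.15 (SE 0.11) with its probe of smallest p. In the difference between both effects, 12 members had an unadjusted p under 0.05 (9.45%, against 2.98% of all probes). Of these, 11 had a higher value in Per3 5/5 (1.33% of all probes) and 1 a lower value (1.65%). That count was 32 with array weights (10.1% of all probes) and 19 with slide as a fixed block (7.01%). When single arrays were left out it lay between 4 and 18. It was 5 without Per3 5/5 array 3 (1.78% of all probes), 4 without array 5 (1.78%), 6 without array 6 (2.03%), 18 without array 4 (4.26%), and 7 without WT array 2 (2.79%), 4 (2.44%) or 11 (2.44%).

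Complex III passes electrons from quinol to cytochrome c, and 6 of its 11 probes were above 0 in each run. Uqcrfs1, the Rieske iron-sulphur protein, measured 3.97 to 4.87 in Per3 5/5 (median 4.25) and 3.93 to 4.19 in WT (median 4.02), with a fold change of 0.34 (SE 0.19) that was 0.10 without arrays 3, 5 and 6. Uqcrc1, a core protein, gave 0.17 (SE 0.12) in run 1 and −0.20 (SE 0.11) in run 2 with A_51_P109835, a difference of 0.37 (SE 0.17), whereas its other probe gave −0.05 and −0.10. Uqcrh, the hinge protein, measured 5.56 to 5.78 in Per3 4/4 (median 5.62) and 5.60 to 6.00 in WT (median 5.78) with A_52_P541875. All 8 knock-in arrays lay below the WT mean, and the fold change was −0.16 (SE 0.07, unadjusted p = 0.039, limma adjusted p = 1.00). The second Uqcrh probe gave 0.03 in the same comparison.

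Complex IV, cytochrome c oxidase, had 8 of 12 probes above 0 in run 1 and 3 of 12 in run 2, leaving out its tissue isoforms. Cox5a measured 6.35 to 6.99 in Per3 5/5 (median 6.44) and 6.14 to 6.39 in WT (median 6.21). The groups overlapped through 1 WT array, number 5 at 6.39. The fold change was 0.32 (SE 0.12, limma adjusted p = 0.80) and 0.15 without arrays 3, 5 and 6. Cox6b1, which holds the dimer together, measured 3.42 to 3.83 in Per3 4/4 (median 3.58) and 3.56 to 4.06 in WT (median 3.70), with a fold change of −0.17 (SE 0.08, unadjusted p = 0.044, limma adjusted p = 1.00). The other 10 probes, of Cox4i1, Cox5b, Cox6a1, Cox6c, Cox7a2, Cox7b, Cox7c, Cox8a and Ndufa4, lay between −0.15 (Cox8a) and 0.15 (Ndufa4) in run 1 and between −0.13 (Cox7b) and 0.14 (Ndufa4) in run 2.

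Several nuclear subunits of complex IV have isoforms that are known from particular tissues: Cox6a2, Cox7a1 and Cox8b from heart and skeletal muscle, Cox4i2 from lung, and Cox6b2, Cox7b2 and Cox8c from testis. In these hypothalamic samples Cox6a2, Cox6b2, Cox7a1 and Cox8b were well above background on all 30 arrays and Cox7b2 on 29. Cox4i2 was so on 5 Per3 5/5 and 3 WT arrays of run 1, with a fold change of −0.09 (SE 0.23). It was not well above background on any array of run 2, so no fold change is given there. On Per3 4/4 array 1, where the skeletal muscle sum was highest, Cox6a2 measured 2.90 and Cox7a1 1.92, inside the range of the other Per3 4/4 arrays (1.15 to 3.54 and 1.36 to 2.05), whereas Cox8b had its highest level of run 2 there (−0.07).

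Cox7b2 had the largest positive fold change of the set. It measured −4.96 to −3.26 in Per3 5/5 (median −3.76) and −5.38 to −4.45 in WT of run 1 (median −4.90). Arrays 1 and 2 lay inside the WT range and the other 5 above it. Cox7b2 differed by 0.89 (SE 0.29, unadjusted p = 0.0044, limma adjusted p = 0.80) and 0.60 without arrays 3, 5 and 6. In run 2 it measured −4.66 to −3.00 in Per3 4/4 and −4.89 to −2.93 in WT, with a fold change of 0.07 (SE 0.27), and the difference between both effects was 0.83 (SE 0.40, limma adjusted p = 1.00).

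Cox8b was the most variable member, with a within-group SD of 0.95. In run 1 it measured −2.76 to −0.77 in Per3 5/5 (median −0.86) and −1.42 to 0.50 in WT (median −0.67), with the 3 lowest values on Per3 5/5 arrays 6, 5 and 7. In run 2 it measured −3.53 to −0.07 in Per3 4/4 (median −1.93) and −4.24 to −1.10 in WT (median −2.22), with the 3 highest values on Per3 4/4 arrays 1, 2 and 4. The fold change was −0.88 (SE 0.48) in Per3 5/5, −0.47 there without arrays 3, 5 and 6, and 0.67 (SE 0.45) in Per3 4/4. The difference between the effects over all arrays was −1.55 (SE 0.66, unadjusted p = 0.026, limma adjusted p = 1.00), the largest of any member in size.

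The level of Cox8b moved in part with the summed signal of choroid plexus markers (11 of 11 genes tested, brightest Clic6, 5 of them above background on all arrays). In run 2 the arrays with the 5 highest choroid plexus sums, Per3 4/4 arrays 1 (17.8), 2 (23.4), 3 (9.41) and 4 (26.7) and WT array 9 (24.2), also had the 5 highest Cox8b levels, and WT array 15 was lowest in both (2.79 and −4.24). In run 1 the 3 arrays of lowest Cox8b, Per3 5/5 arrays 5, 6 and 7, had the 3 lowest sums (4.04, 5.90 and 5.67), and WT array 3 was highest in both (12.4 and 0.50). Not all arrays fell in this order: in run 2, WT array 8 had a low sum (3.02) with a Cox8b level of −1.77, and WT array 14 a higher sum (8.72) with −2.34. In run 1 the order held mainly at the extremes. Per3 5/5 array 2 ranked 11 by sum (6.32) and 5 by Cox8b (−0.77), and WT array 5 ranked 8 (7.58) and 2 (−0.51). The choroid plexus genes themselves had a median fold change of −0.77 in Per3 5/5 and 0.90 in Per3 4/4, the same signs as Cox8b. This relation was looked for after the values were seen, and its part in the Cox8b difference was not tested.

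**Figure D4:**
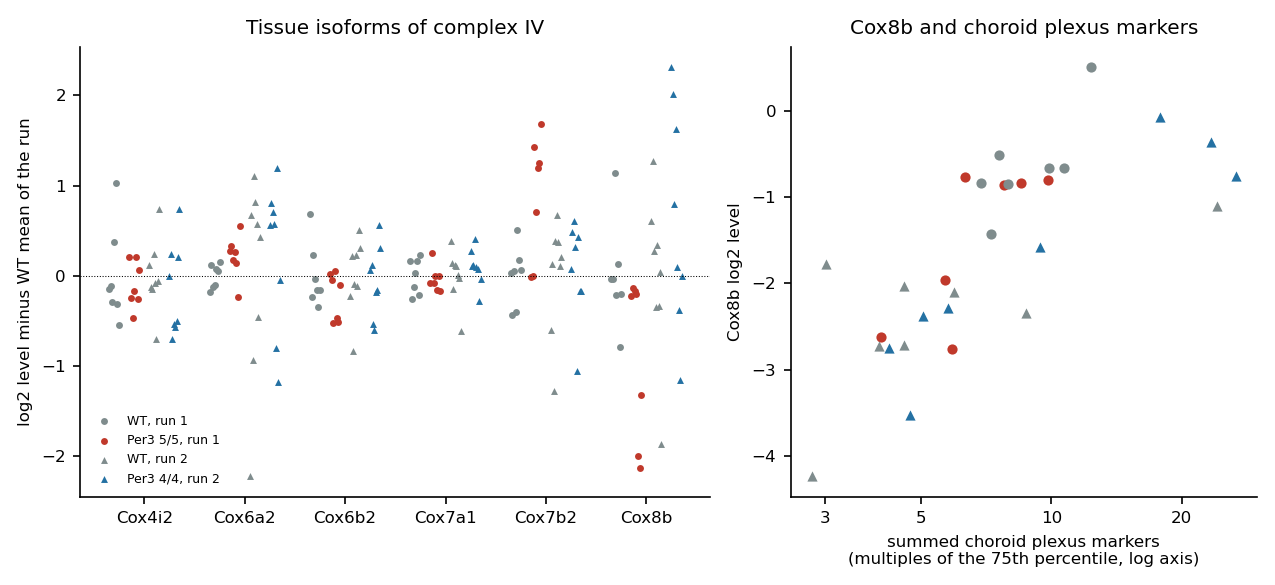
Left, log2 levels of the 6 tested tissue isoforms of complex IV on each array, minus the WT mean of the run, where Cox4i2 was not well above background on any array of run 2. Right, log2 level of Cox8b (y axis) against the summed intensity of choroid plexus markers in multiples of the array's 75th percentile (x axis, log scale), with 1 point per array and the same symbols, where the 5 arrays of run 2 with sums from 9.41 to 26.7 are also its 5 highest for Cox8b.

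Cox6a2 was also variable (within-group SD 0.74). It measured 2.67 to 3.45 in Per3 5/5 and 2.72 to 3.05 in WT of run 1, but 1.15 to 3.54 in Per3 4/4 and 0.12 to 3.44 in WT of run 2, with low values on WT arrays 8 (0.12), 10 (1.40) and 14 (1.89) and Per3 4/4 arrays 7 (1.15) and 5 (1.54). Both genotypes held low and high arrays, and the fold changes were 0.21 (SE 0.38) and 0.23 (SE 0.35). Cox7a1 differed little, at −0.03 (SE 0.12) and 0.10 (SE 0.11), and Cox6b2 gave −0.23 (SE 0.19) and −0.05 (SE 0.18).

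The name rule also took in genes that are not subunits. Cox7a2l, a factor for supercomplexes of complexes III and IV, gave −0.15 in run 1 and −0.03 in run 2. Atp5s, known as coupling factor B, gave 0.27 (SE 0.12) with A_52_P195798 and 0.19 (SE 0.19) with A_51_P192654 in run 1, and 0.13 and 0.34 in run 2. Atp5sl gave 0.26 (SE 0.15) and 0.05 (SE 0.33) in run 1 with its probes. Cox4nb, a neighbour of the Cox4i1 gene, gave 0.02 (SE 0.11) and −0.18 (SE 0.09) in run 1 with its 2 probes.

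Genes around the chain were described from lists. In neither run did any of their probes reach the adjusted threshold. Beside the run 1 counts stand 45.5% of all probes above 0, and 3.43% higher and 2.74% lower at an unadjusted p under 0.05. In Per3 5/5, 11 of 12 probes of the electron carriers were above 0 (median 0.23), with Coq7, an enzyme of ubiquinone synthesis, at 0.41 (SE 0.11, limma adjusted p = 0.80). The tricarboxylic acid cycle had 21 of 27 probes above 0 (median 0.17) and 7 at an unadjusted p under 0.05, among them Dld, a shared subunit of the dehydrogenase complexes, at 0.38 (SE 0.14). Assembly factors of the complexes had 25 of 34 probes above 0 (median 0.12), with Tmem70, needed for complex V, at 0.33 (SE 0.12), and mitochondrial carriers and channels had 14 of 18 (median 0.12), with Slc25a27 at 0.53 (SE 0.19). Other probes of these genes differed, with 0.21 and 0.09 for Slc25a27, and 0.30 and −0.03 for Dld. Mitochondrial antioxidant genes had 6 of 9 (median 0.10), with Txnrd2 at 0.37 (SE 0.17). The nuclear regulators of mitochondrial genes had 12 of 26 probes above 0 (median −0.04). Gabpb1, a GABP subunit, gave 0.52 (SE 0.22) with A_52_P331701, which stood 0.98 above the WT mean on arrays 3, 5 and 6. Its other probes gave 0.16 and −0.05. In the same list a Ppargc1b probe was lower at an unadjusted p under 0.05 (−0.26, SE 0.12), and the other Ppargc1b probes gave 0.01 and −0.17. Glycolysis, which makes ATP outside the mitochondrion, had 20 of 32 probes above 0 (median 0.02), with Pgk1 at 0.37 (SE 0.14). The mean over Per3 5/5 arrays 3, 5 and 6 gave list medians of 0.41 for electron carriers, 0.36 for the cycle and 0.22 for assembly factors. It gave 0.20 for carriers and channels, 0.15 for antioxidant genes, −0.0028 for glycolysis and −0.13 for the regulators.

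In Per3 4/4 the medians of these lists were 0.07 for electron carriers, 0.02 for the tricarboxylic acid cycle, 0.02 for assembly factors, 0.01 for carriers and channels, −0.02 for antioxidant genes, 0.05 for regulators and −0.03 for glycolysis. The only probe of these 7 lists with an unadjusted p under 0.05 was of Vdac1, the outer membrane channel, at −0.23 (SE 0.10, limma adjusted p = 1.00), where 1.73% of all probes had such a p. The probes of smallest p in the other lists were of Etfa (0.13, SE 0.09), Nubpl (0.35, SE 0.17), Tfam (−0.30, SE 0.20), Cs (0.09, SE 0.10), Txn2 (−0.14, SE 0.10) and Hk1 (0.40, SE 0.30). For several of these genes the other probes differed. The other Vdac1 probe gave −0.03 and the other Cs probe −0.0020. The Nubpl probe was well above background on 26 arrays only, and the other Nubpl probes gave 0.16 and 0.02. The other Tfam probes gave 0.06 and 0.08. The Hk1 probe was well above background on 21 arrays only, and the other Hk1 probes lay between −0.04 and 0.07.

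Markers of cell types, given as they move beside these values, had no probe past the adjusted threshold either. In Per3 5/5 the list medians were 0.23 for hypothalamic neurons, 0.03 for neurons in general, −0.21 for astrocytes, −0.14 for oligodendrocytes, −0.14 for endothelium, −0.26 for ependyma, 0.03 for microglia, −0.02 for pituitary, −0.05 for blood and −0.04 for skeletal muscle. The probes of smallest p were of Cartpt (0.55, SE 0.30), Syt1 (−0.66, SE 0.31), Slc1a3 (−0.55, SE 0.27) and Mbp (−0.24, SE 0.17) for neurons and glia, and of the choroid plexus gene Tmem72 (−1.87, SE 0.80). That Syt1 probe, A_52_P41090, was well above background on 26 arrays only. The other Syt1 probes, above background on all 30, gave −0.13 to 0.22, and 8 of 15 probes of neurons in general lay above 0. In Per3 4/4 the medians were 0.24 for hypothalamic neurons, 0.03 for neurons, −0.04 for astrocytes, 0.06 for oligodendrocytes, −0.20 for microglia, −0.03 for endothelium, 0.36 for ependyma, −0.80 for pituitary, −0.32 for blood and 0.64 for skeletal muscle. The probes of smallest p were of Clic6 (0.61, SE 0.19) for choroid plexus, Myh4 (1.104, SE 0.37) for muscle, Pmch (0.92, SE 0.57) for hypothalamic neurons and C1qb (−0.26, SE 0.15) for microglia. The muscle and pituitary values include Per3 4/4 array 1 and WT array 14, whose sums stood apart (11.9 and 982). On Per3 4/4 array 1 that Myh4 probe measured −0.62, against −4.64 to −3.00 on the other Per3 4/4 arrays. Tnni2 measured 2.13 there, against −2.92 to −2.32. Medians without these arrays were not taken.

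Within slides, the median fold change of the members was above 0 on all 4 slides of run 1 (0.05 to 0.09) and of either sign on the slides of run 2 (−0.13 to 0.08). Across arrays, the median member value relative to the WT mean was 0.02 to 0.09 in all 7 Per3 5/5 arrays and −0.07 to 0.07 in the WT arrays of run 1, whereas the medians of the Per3 4/4 arrays ran from −0.19 on array 7 to 0.23 on array 5, and those of the WT arrays of run 2 from −0.27 on array 15 to 0.12 on array 11. Without the 8 arrays of wide spread, the members had a median of 0.05 in Per3 5/5 (97 of 127 above 0, against 52.4% of all probes, and 1 with an unadjusted p under 0.05, against 2.01%) and of −0.08 in Per3 4/4 (24 of 127 above 0, against 44.2%, and 19 with an unadjusted p under 0.05, all lower, against 4.92%). No member passed the adjusted threshold in either run under that choice of arrays, where the smallest adjusted p in Per3 4/4 was 0.94.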

How the data were processed

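Per the labels and the methods, total RNA was hybridized to 1-colour Agilent arrays and scanned, and the authors deposited the Feature Extraction output with the background-subtracted processed intensity of each spot. A log2 table deposited by the authors held values centred per probe within each run, and it served only as an alternative here. Run 1 and run 2 differ in scanner, and the intensities of run 2 were deposited rounded. Control spots and outlier spots were left out, and spots of 1 probe were averaged. The log2 intensity minus the 75th percentile of the array was fitted over all 30 arrays with a mean for each genotype and run (limma 3.58.1, R 4.3.3), and p-values were adjusted over 29946 probes (Benjamini-Hochberg). Probes had to be well above background on at least 50% of the arrays of 1 genotype. For arrays, the number of mice limits the precision. The rank product named in the methods was not run.

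The members and gene lists were chosen with earlier results of these data known. Named were, in each role, the probe of smallest p in each comparison, probes without overlap, genes whose probes differed by more than 0.5, the 5 members of largest spread, all tissue isoforms, and the probe of smallest p in each list; 1 gene that this rule names is not reported here. The promoters, Ndufa8, Ppargc1b and the other probes of named genes were picked after values were seen. Of 162 listed genes, 160 were found. Alternatives covered background, scaling, filters, slide, array weights, the authors' table and single arrays. Leaving out Per3 5/5 arrays 3, 5 and 6, or all arrays of wide spread, was added after seeing the data. The script was tested on simulated data.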

Additional observations from a re-analysis of the deposited data

Results flagged for a closer look

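Of 140 groups of arrays examined, 10 had 1 array far from the others by Dixon's test, where chance gives about 1 in 20. On Per3 4/4 array 5, which also had the widest spread of its run, Atp5b (A_52_P328078) was high at 7.59 (next 7.07), Atp5g3 was high at 6.95 (next 6.28), Cox7b2 was low at −4.66 (next −3.78), and the median of all members relative to WT was high at 0.23 (next −0.0016). WT array 15 was high for Atp5d at 5.53 (next 5.07). Per3 4/4 array 7 was high for Uqcrc1 (A_51_P109835) at 4.62 (next 4.26). In run 1, Per3 5/5 array 3 was high for Ndufa11 (A_52_P13436) at 3.13 (next 2.81) and Per3 5/5 array 2 for Cox7a1 at 1.83 (next 1.58). WT array 1 was high for Sdha (A_51_P410823) at 2.24 (next 1.92) and low for Atp5s (A_51_P192654) at 0.88 (next 1.26).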

How the results depend on the processing

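No member passed the adjusted threshold in any comparison under any alternative with adjusted p-values, with 0 called whichever single array was left out. The lowest adjusted p of a member over the alternatives was 0.12 in run 1, 0.53 in run 2 and 0.25 for the difference between effects, all with array weights. The t-test of the methods, taken without adjustment, gave 27 members in run 1 (10.4% of all probes) and 4 in run 2 (0.985%), and after Benjamini-Hochberg adjustment 0 in both. The limma count at an unadjusted p under 0.05 in run 1 (19) was 30 with slide as a fixed block (13.4% of all probes) and 15 with array weights (10.1%). In run 2 (4) it was 5 (2.87%) and 24 (5.36%), and for the difference between effects (12) it was 19 (7.01%) and 32 (10.1%). The median fold change of the members was 0.04 to 0.09 over 19 alternatives in run 1, the highest being 0.091 on slide 1 alone (−0.10 for all probes), and −0.13 to 0.08 over 18 in run 2, where 2 slides alone turned its sign. Without single arrays it was 0.04 to 0.06 in run 1 and −0.06 to −0.0057 in run 2. Signs of the named members turned in 22 of 490 values in run 1, 11 of 457 in run 2 and 12 of 424 for the difference.

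Between arrays of run 1 with the same replicate number, correlations ran from −0.29 to 0.40. A fit with the replicate block called 0 members, with a median of 0.05. As the replicate numbers of run 1 are not settled, neither result can show whether the mice were paired. A block of replicate numbers could not be fitted in run 2, where the Per3 4/4 and WT arrays share only the number 8.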
